A study of Mus musculus with 9 samples.

Results

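Expression of 10 genes that mark the mesenchyme and mesothelium of the embryonic pancreas was followed across 9 RNA sequencing libraries: the transcription factor genes Tcf21, Nkx3-2, Nkx2-5, Barx1, Osr1 and Foxf1a, the mesothelial genes Wt1 and Msln, and the receptor genes Pdgfra and Pdgfrb. They were chosen by gene symbol, and all 10 were found among the 23231 symbols analysed. Whole pancreas had been dissected from mouse embryos at stage e15.5, when exocrine and endocrine cells are forming, on a mixed C57BL/6 and 129Sv background. The 3 groups of 3 libraries each were labelled Blinc1-/- (knockout, KO), Blinc1+/- (heterozygote, Het) and Blinc1+/+ (wild type, WT). Blinc1 makes a long noncoding RNA and neighbours Nkx2-2. The labels give neither the design of the Blinc1 allele nor the number of embryos or litters behind each group. The p-values therefore speak only to the spread among the 9 samples, which may be partly technical. By the sex-linked transcript levels given below, heterozygote and wild-type libraries came from both sexes, so neither group came from a single embryo. For the knockouts, all female, this cannot be told. Levels are FPKM (fragment counts adjusted for transcript length and library depth), so genes can be compared per length.

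Mesenchyme surrounds the pancreatic epithelium, sends it growth signals and later gives rise to fibroblasts, stellate cells and the mural cells of vessels. The mesothelium is the sheet of cells that covers the organ and contributes cells to the mesenchyme beneath it. Tcf21 encodes a basic helix-loop-helix factor of visceral mesenchyme, Nkx3-2 (also called Bapx1), Nkx2-5 and Barx1 encode homeodomain factors of the mesenchyme of the pancreas, spleen and stomach, Osr1 encodes a zinc finger factor of mesoderm, and Foxf1a encodes a forkhead factor of splanchnic mesoderm that responds to Hedgehog signals. Wt1 encodes a zinc finger factor of mesothelium and kidney progenitors, and Msln encodes mesothelin, a surface protein of mesothelial cells. Pdgfra and Pdgfrb encode the receptor tyrosine kinases for platelet-derived growth factors (PDGF), and mark fibroblast-type mesenchyme (Pdgfra) and the pericytes of the vessel wall (Pdgfrb).

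The libraries differed in ways that bear on these genes. The confidence bounds deposited with each FPKM imply 19532984 to 25437255 fragments per library. Blinc1 was not analysed here under that name, and the neighbouring transcript Nkx2-2as, whose highest library had 0.142 FPKM, was too low to check the genotype labels. Every knockout library came from females by its Xist level, as did replicate 3 of the heterozygotes and of the wild types (35 to 40.3 FPKM, with 0.0608 FPKM or less in the other 4), so knockout against wild type partly compares females with males. The islet factor gene Nkx2-2 varied within groups, with 24.9, 6.08 and 5.48 FPKM in knockouts, 6.37, 19 and 13.4 FPKM in heterozygotes and 15.2 to 25.5 FPKM in wild types. Fits were therefore also run without the first knockout and the first heterozygote library.

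Of the 10 genes, 9 passed the filter of 1 FPKM in at least 3 libraries, as did 13306 genes in all. Nkx2-5 reached 1 FPKM in 0 libraries and was tested only in the alternative without a filter. In wild types Osr1 had the highest level, at 35.8 ± 3.27 FPKM (SD, n = 3), with a range that did not overlap that of the next gene. Pdgfrb at 23.1 ± 0.405 and Tcf21 at 22.9 ± 3.33 FPKM had overlapping ranges. Barx1 at 12.2 ± 1.97, Pdgfra at 10.2 ± 1.02 and Wt1 at 8.6 ± 1.1 FPKM formed a middle group in which each neighbour overlapped the next. Msln at 2.61 ± 0.914, Foxf1a at 1.84 ± 0.444 and Nkx3-2 at 1.62 ± 0.288 FPKM overlapped in the same way, and Nkx2-5 was lowest at 0.384 ± 0.27 FPKM. Markers of the labelled tissue were high: the sum of 12 acinar genes was 16900 to 26400 FPKM and that of 12 endocrine genes 3110 to 5860 FPKM over the 9 libraries.

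**Figure D1:**
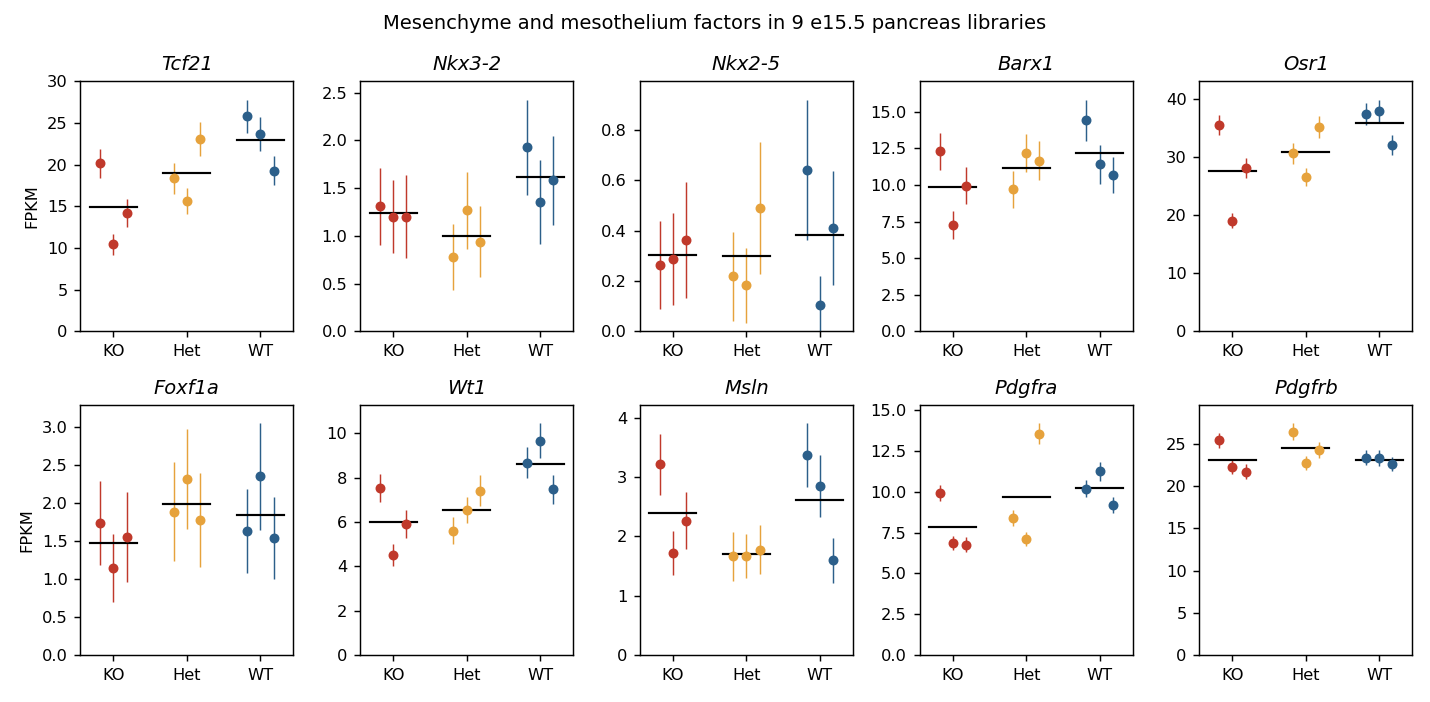
Level of each of the 10 genes in FPKM (y axis, from 0) in the knockout (KO), heterozygote (Het) and wild-type (WT) libraries, with replicates 1 to 3 from left to right in each group. Points are libraries, vertical lines the deposited confidence bounds and black bars group means. Tcf21 lies at 10.4 to 20.2 FPKM in knockouts and 19.3 to 25.8 FPKM in wild types, while Pdgfrb lies between 21.7 and 26.5 FPKM everywhere.

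The comparison of knockout with wild type asks whether loss of Blinc1 goes with another level of these genes. Mean levels of Tcf21, Wt1, Nkx3-2, Pdgfra and Osr1 were 0.65 to 0.77 of the wild-type mean in knockouts. Foxf1a was at 0.80, Barx1 at 0.81 and Msln at 0.92 of that mean, and Pdgfrb averaged 23.1 FPKM in both groups. None of the 9 tested genes passed the test. limma called 0 of 13306 genes higher and 0 lower (0.0% each), with 1117 genes at an unadjusted p under 0.05, and the added voom test also called 0, with 1164. At an unadjusted p under 0.05 stood 2 of the 9 genes, Tcf21 and Wt1, both lower, beside 5.79% of all tested genes lower and 2.6% higher. For all 9 genes the log2 difference was below 0, against 58.5% of all tested genes. That count includes Pdgfrb (-0.0020, SE 0.07) and Msln (-0.08, SE 0.21), whose differences were smaller than their SE. Their median difference was -0.30, beside -0.03 for all tested genes. In bulk tissue, fewer mesenchymal cells and less of a transcript per cell cannot be told apart.

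Tcf21 (mm9 chromosome 10, 22537079 to 22539934, minus strand, protein coding, 2 exons) had the largest difference of the 9. It was at 20.2, 10.4 and 14.2 FPKM in the knockouts, in the order of replicates 1 to 3, at 18.3, 15.6 and 23.1 FPKM in the heterozygotes and at 25.8, 23.7 and 19.3 FPKM in the wild types. Knockout replicate 1 lay inside the wild-type range, and the other knockouts lay below it. The log2 difference between knockout and wild type was -0.62 (SE 0.22, limma adjusted p = 0.576). Without knockout replicate 1 it was -0.85 (limma adjusted p = 0.0873), without knockout replicate 2 it was -0.41 (limma adjusted p = 0.973), and over all alternatives the adjusted p ran between 0.0873 and 0.973. Among the female libraries alone, the 3 knockouts averaged 14.9 ± 4.92 FPKM, against 19.3 FPKM in the single wild-type female. The difference in mean log2(FPKM + 1) among females, with no replicate check on the wild-type side, was -0.39 for Tcf21, -0.30 for Wt1, -0.25 for Osr1, -0.23 for Pdgfra, -0.21 for Nkx3-2, -0.14 for Barx1 and -0.04 for Foxf1a, and it was above 0 for Msln (0.37) and Pdgfrb (0.03).

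The sequences next to the start sites of Tcf21, Pdgfra and Barx1 are shown as examples. Lower knockout means were not particular to these genes, and among them only the Barx1 window stood apart in base composition. Entries of the RefSeq promoter table (build GRCm38.p6) were used for 5 of the 10 genes, and each sequence used was found once in mm9. This is a count of the entries used, and the remaining genes may also have entries. The Tcf21 and Pdgfra windows are the 250 bases before the RefSeq start, and for Barx1 only the 212 bases outside annotated transcripts are printed. Capitals mark matches on either strand to any of 5 motifs, which may overlap: the E-box CANNTG of basic helix-loop-helix factors, the GC box GGGCGG, the TATA box TATAAA, the CCAAT box and the forkhead motif GTAAACA.
Tcf21, chr10:22539950-22540199, minus strand: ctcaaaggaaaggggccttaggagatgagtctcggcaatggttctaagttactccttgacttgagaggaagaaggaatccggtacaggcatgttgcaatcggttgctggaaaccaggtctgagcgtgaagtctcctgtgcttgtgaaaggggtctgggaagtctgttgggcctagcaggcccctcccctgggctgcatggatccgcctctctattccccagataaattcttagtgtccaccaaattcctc
Pdgfra, chr5:75548026-75548275, plus strand: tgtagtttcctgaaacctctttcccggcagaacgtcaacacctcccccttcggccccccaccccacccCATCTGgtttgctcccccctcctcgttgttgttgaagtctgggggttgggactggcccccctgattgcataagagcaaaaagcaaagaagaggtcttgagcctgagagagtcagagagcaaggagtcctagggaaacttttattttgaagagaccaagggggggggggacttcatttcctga
Barx1, chr13:48758155-48758366, plus strand: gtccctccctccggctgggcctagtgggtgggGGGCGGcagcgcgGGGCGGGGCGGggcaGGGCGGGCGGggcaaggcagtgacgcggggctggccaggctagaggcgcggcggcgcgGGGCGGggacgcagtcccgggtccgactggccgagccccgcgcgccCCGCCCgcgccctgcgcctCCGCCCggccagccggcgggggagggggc
Over the 250 bases before the start, the Tcf21 window was 52.4% G and C and held 0 of the 5 motifs, and the Pdgfra window was 54.4% G and C with 1 CANNTG. The Barx1 window was 85.6% G and C with 8 GGGCGG, overlapping ones included. Of 32851 promoter windows of this length, 66.2% held the E-box, 32.7% the GC box, 12.4% the TATA box, 33.8% the CCAAT box and 3.17% the forkhead motif. The median window was 52.4% G and C. A match describes letters and not a bound site.

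Osr1 (chromosome 12, 9581248 to 9588306, plus strand, 3 exons) followed Tcf21 most closely of the other 8 tested genes. It was at 35.6, 19 and 28.2 FPKM in knockouts, 30.6, 26.6 and 35.2 FPKM in heterozygotes and 37.4, 37.9 and 32 FPKM in wild types. Knockout replicate 2 was lowest of all 9 libraries at Osr1, Tcf21, Barx1, Foxf1a and Wt1. The Osr1 difference was -0.40 (SE 0.19, limma adjusted p = 0.576), and it was -0.60 without knockout replicate 1 and -0.17 without knockout replicate 2, the widest values among the fits without a library. The profiles of Osr1 and Tcf21, each centred on its own mean over the 9 libraries, differed by a root mean square of 0.12 on the log2 scale, the smallest of all pairs among the 9 genes.

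The homeodomain genes were at lower levels and differed less clearly. Barx1 (chromosome 13, 48758405 to 48761876, plus strand, 4 exons) was at 12.3, 7.25 and 9.95 FPKM in knockouts, 9.71, 12.2 and 11.7 FPKM in heterozygotes and 14.4, 11.4 and 10.7 FPKM in wild types, with overlapping groups. Its difference between knockout and wild type was -0.30 (SE 0.17, limma adjusted p = 0.59), with -0.46 without knockout replicate 1, -0.12 without knockout replicate 2 and -0.18 without wild-type replicate 1. Nkx3-2 (chromosome 5, 42152722 to 42155459, minus strand, 3 exons) was at 1.31, 1.2 and 1.2 FPKM in knockouts, 0.776, 1.27 and 0.938 FPKM in heterozygotes and 1.93, 1.35 and 1.58 FPKM in wild types. It was the only one of the 9 genes at which every knockout library lay below every wild-type library, which 6.64% of all tested genes did. At 0 of the 9 genes did every knockout library lie above every wild-type library, against 4.55% of all tested genes. The Nkx3-2 difference was -0.22 (SE 0.13, limma adjusted p = 0.59), or -0.14 without wild-type replicate 1, and each library rested on only 20 to 59 implied fragments. Nkx2-5 (chromosome 17, 26975610 to 26978510, minus strand, 2 exons) was at 0.262, 0.288 and 0.363 FPKM in knockouts, 0.218, 0.182 and 0.491 FPKM in heterozygotes and 0.641, 0.103 and 0.409 FPKM in wild types. With 3 to 21 implied fragments per library, no difference was detectable at this depth for Nkx2-5. Without the filter its log2 difference was -0.0677 between knockout and wild type (SE 0.14, limma adjusted p = 0.907), -0.0827 between heterozygote and wild type and 0.015 between knockout and heterozygote.

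Foxf1a (chromosome 8, 123608374 to 123610779, plus strand, 2 exons) overlaps the annotated gene Gm20388 on the same strand, so its level is uncertain. It was at 1.73, 1.14 and 1.55 FPKM in knockouts, 1.88, 2.32 and 1.77 FPKM in heterozygotes and 1.63, 2.35 and 1.54 FPKM in wild types. Its difference between knockout and wild type was -0.19 (SE 0.15, limma adjusted p = 0.658), and it was -0.0639 with sex as a covariate, -0.0920 when knockout replicate 2 was left out and -0.0677 when wild-type replicate 2 was. Against heterozygotes every knockout library was lower at Foxf1a, which 2.43% of tested genes were, with a difference of -0.28 (SE 0.15, limma adjusted p = 0.9998) from 26 to 50 implied fragments per library.

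The mesothelial genes differed in the size of their difference. Wt1 (chromosome 2, 104966686 to 105013771, plus strand, 10 exons) was at 7.52, 4.52 and 5.92 FPKM in knockouts, 5.6, 6.54 and 7.41 FPKM in heterozygotes and 8.66, 9.67 and 7.46 FPKM in wild types. Knockout replicate 1 lay just inside the wild-type range, and every heterozygote library lay below it. The knockout difference of Wt1 was -0.47 (SE 0.16, limma adjusted p = 0.576), -0.63 without knockout replicate 1 (limma adjusted p = 0.0969) and -0.32 without knockout replicate 2 (limma adjusted p = 0.973), with adjusted p between 0.0961 and 0.973 over all alternatives. Msln (chromosome 17, 25885558 to 25891272, minus strand, 16 exons) was at 3.21, 1.72 and 2.26 FPKM in knockouts, 1.66, 1.66 and 1.78 FPKM in heterozygotes and 3.37, 2.85 and 1.59 FPKM in wild types. The wild-type female had the lowest Msln level of all 9 libraries, and the difference of -0.08 (SE 0.21) turned to 0.13 with sex as a covariate, to 0.0739 without knockout replicate 2 and to 0.0805 without wild-type replicate 1. It was -0.24 without knockout replicate 1 and -0.30 without wild-type replicate 3. Kidney, adrenal and gonad genes that could accompany Wt1 or Osr1 were low: 9 of them summed to 2.76 to 3.83 FPKM in knockouts, 2.82 to 3.77 FPKM in heterozygotes and 3.06 to 4.70 FPKM in wild types, and Pax2, Pax8, Cyp17a1 and Umod were under 0.1 FPKM in every library.

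Of the PDGF receptor genes, Pdgfra had a lower mean in knockouts than in wild types and Pdgfrb did not. Pdgfra (chromosome 5, 75548316 to 75594229, plus strand, 23 exons) was at 9.91, 6.88 and 6.77 FPKM in knockouts, 8.39, 7.09 and 13.6 FPKM in heterozygotes and 10.2, 11.3 and 9.22 FPKM in wild types. The heterozygote replicate 3 was highest of all libraries. The Pdgfra difference between knockout and wild type was -0.36 (SE 0.21, limma adjusted p = 0.596), and -0.54 with sex as a covariate. Pdgfrb (chromosome 18, 61204804 to 61244721, plus strand, 24 exons) was at 25.4, 22.3 and 21.7 FPKM in knockouts, 26.5, 22.7 and 24.3 FPKM in heterozygotes and 23.4, 23.3 and 22.7 FPKM in wild types, from 2340 to 3411 implied fragments. Its highest library was 1.22 times its lowest, against 1.99 to 2.48 times for the other 8 tested genes, and 30.5% of all tested genes spread no more than Pdgfrb did. Its difference was -0.0020 (SE 0.07), with a sign that turned under 3 settings and in 4 of the fits without a library.

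**Figure D2:**
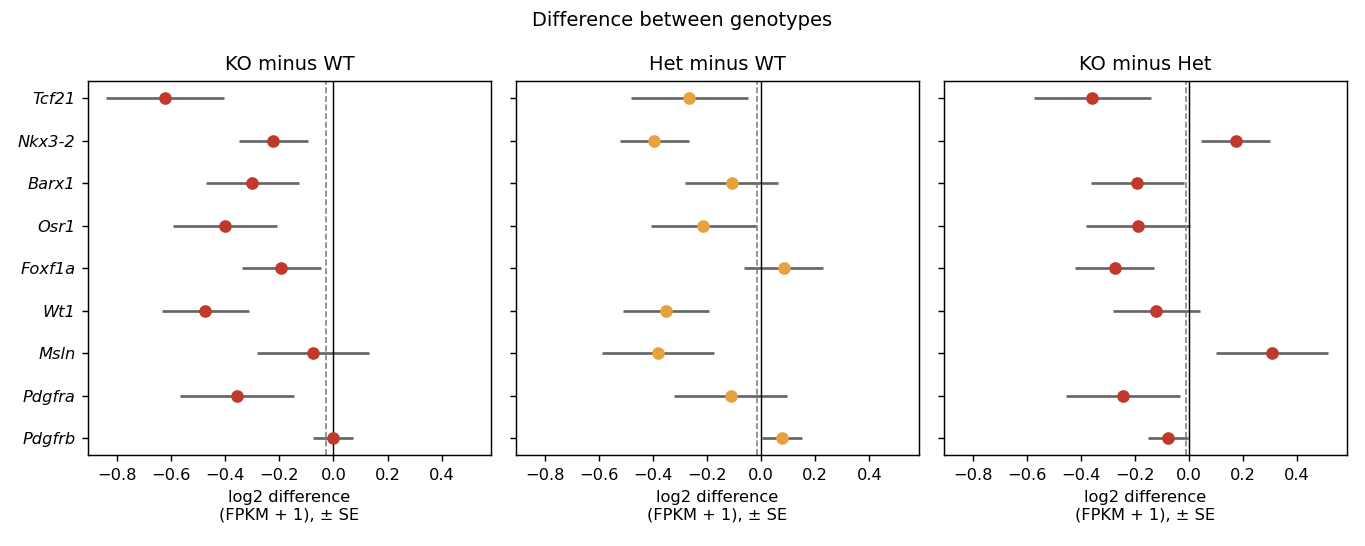
Difference in log2(FPKM + 1) of the 9 tested genes, knockout minus wild type, heterozygote minus wild type and knockout minus heterozygote, with horizontal bars of 1 standard error (SE). The solid line is 0 and the dashed line the median of all 13306 tested genes. Tcf21 lies farthest left between knockout and wild type at -0.62 and Pdgfrb at -0.0020.

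The knockout libraries 2 and 3 differed from the first one. At 7 of the 9 genes (all but Foxf1a and Msln) both lay below every wild-type library, as they did at 27.5% of all tested genes. These libraries were singled out after their Nkx2-2 levels were seen. Marker lists of other cells also differed between these libraries or between the groups. The summed level of 12 acinar genes was 16900, 26400 and 21100 FPKM in the knockouts, 20000 to 22100 FPKM in heterozygotes and 17700 to 18200 FPKM in wild types, with 11 of 12 above 0 between knockout and wild type. The 12 endocrine genes summed to 5090, 3430 and 3110 FPKM in the knockouts, 3270 to 5060 FPKM in heterozygotes and 4150 to 5860 FPKM in wild types, with 11 of 12 below 0 and a median difference of -0.39. The 10 endothelial genes summed to 266, 212 and 243 FPKM in the knockouts, 253 to 269 FPKM in heterozygotes and 257 to 304 FPKM in wild types, with 10 of 10 below 0 (median -0.22). The 10 immune genes summed to 294, 243 and 281 FPKM in the knockouts, all below the wild types, 299 to 349 FPKM in heterozygotes and 317 to 342 FPKM in wild types, also with 10 of 10 below 0 (median -0.32). No gene of these 4 lists was at 0 in every library. The part of these shifts in the results above was not tested.

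**Figure D3:**
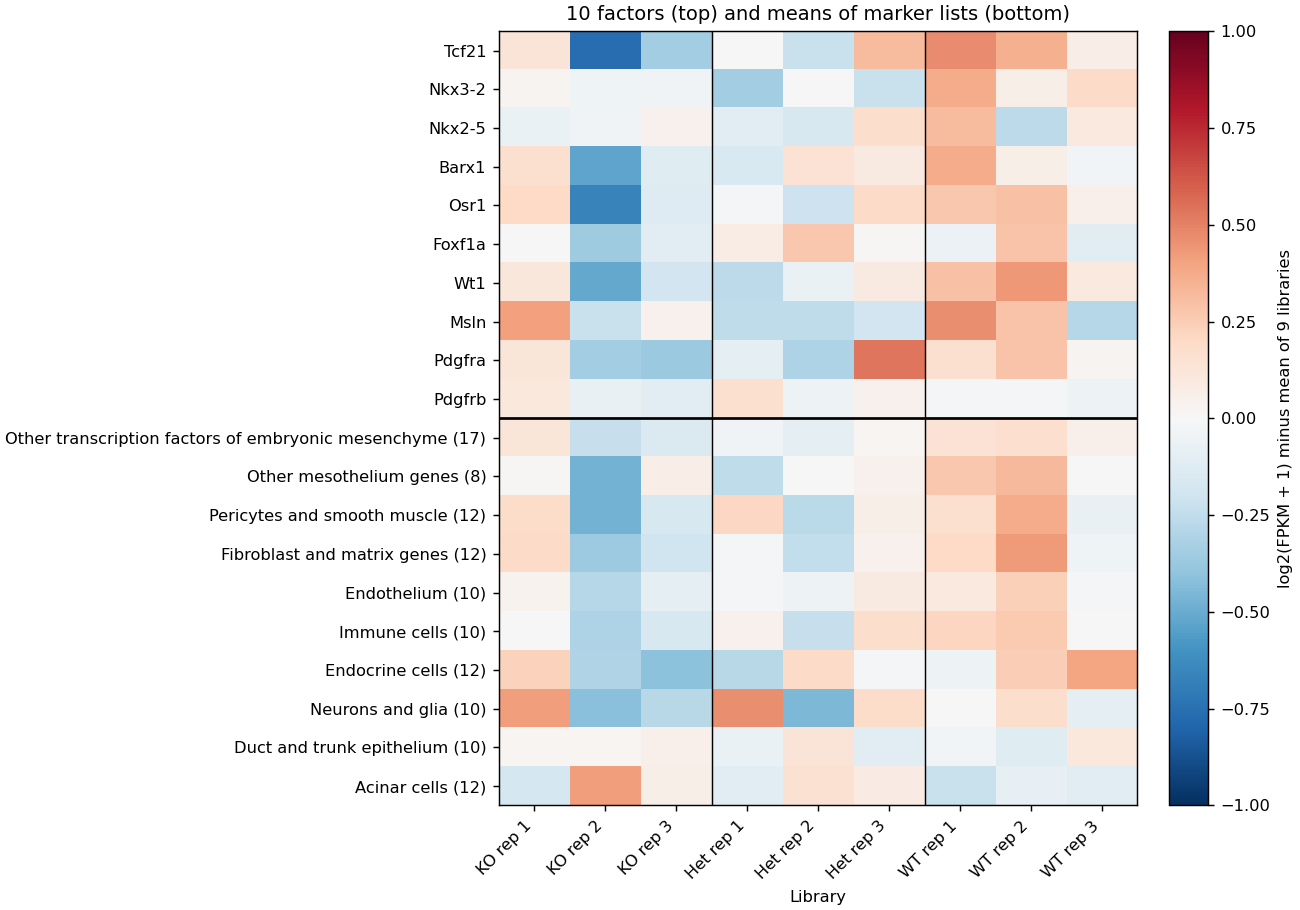
Colour shows log2(FPKM + 1) minus the mean over the 9 libraries (x axis) for the 10 genes (top rows) and for the mean of the tested genes of each marker list (bottom rows, number of genes in parentheses), with knockouts at left, then heterozygotes and wild types. Knockout replicate 2 is lowest at 5 of the 10 genes and has the largest acinar sum, 26400 FPKM.

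Levels relative to Tcf21 are free of a shift common to both genes, but they carry any change of Tcf21 itself. Its difference between knockout and wild type, -0.62, was the largest of the tested genes in this set. Any gene that fell less than Tcf21 therefore tends to a higher ratio in knockouts. Such a higher ratio is no result separate from the lower Tcf21 level. These ratios were chosen after their values were seen. Osr1 was at 1.76 to 1.99 times Tcf21 in knockouts, 1.53 to 1.71 times in heterozygotes and 1.45 to 1.66 times in wild types. Barx1 was at 0.61, 0.696 and 0.701 times Tcf21 in knockouts, 0.529, 0.779 and 0.506 times in heterozygotes and 0.559, 0.481 and 0.555 times in wild types, so the heterozygotes reached above every knockout and into the wild-type range. Wt1 to Tcf21 overlapped, at 0.373 to 0.434 in knockouts, 0.305 to 0.419 in heterozygotes and 0.336 to 0.408 in wild types. Of the other 8 tested genes, 4 (Barx1, Osr1, Msln and Pdgfrb) had a higher ratio to Tcf21 in every knockout than in every wild-type library, as had 29.1% of all tested genes. Pdgfrb to Pdgfra was 2.57, 3.24 and 3.21 in knockouts, 3.15, 3.21 and 1.79 in heterozygotes and 2.29, 2.07 and 2.46 in wild types. Knockouts lay above wild types at this ratio, as did 13.4% of tested genes relative to Pdgfra, and heterozygotes spanned both groups.

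**Figure D4:**
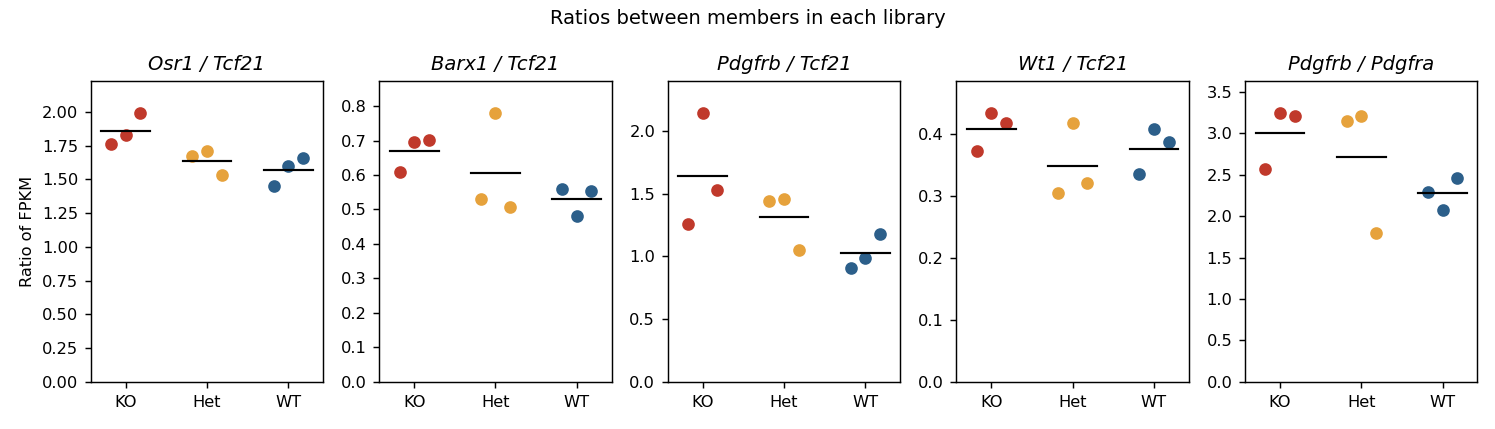
Ratio of FPKM between named pairs (y axis, from 0) in each knockout, heterozygote and wild-type library. Points are libraries and bars group means. Osr1 to Tcf21 and Barx1 to Tcf21 do not overlap between knockout and wild type, while Wt1 to Tcf21 does. The lower Tcf21 level in knockouts by itself raises ratios to Tcf21 there.

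Other mesenchymal and mesothelial genes also had lower knockout means without passing the test. Their lists were chosen for this tissue with earlier results of these data known. Of 17 other mesenchyme transcription factor genes 15 were below 0 (median -0.21), of 8 other mesothelial genes 8 (median -0.35), of 12 fibroblast and matrix genes 12 (median -0.36), of 12 pericyte and smooth muscle genes 12 (median -0.31), of 6 genes of mesenchymal signals 6 (median -0.31) and of 4 PDGF ligand genes 4 (median -0.15), and 0 of each were called higher or lower. Beside these stand 58.5% of all tested genes below 0 and a median of -0.03. The direction was not particular to mesenchyme: all 10 endothelial and all 10 immune genes were below 0. Of 12 acinar genes 11 were above 0. Among those with the smallest p, the mesothelial gene Upk3b was at 21.8 ± 5.96 FPKM in knockouts and 29.4 ± 5.3 FPKM in wild types (SD, n = 3 each). The pericyte gene Cspg4 was at 2.31 ± 0.539 FPKM in knockouts and 3.33 ± 0.401 FPKM in wild types. Des, an intermediate filament gene of muscle, was at 30.5 ± 7.37 FPKM in knockouts and 40.5 ± 2.19 FPKM in wild types. Ogn, which encodes the matrix protein osteoglycin, was at 19.1 ± 2.34 FPKM in knockouts and 26.3 ± 3.46 FPKM in wild types (log2 difference -0.44, SE 0.11). The signals Wnt2b, Fgf10 and Bmp4 were at 2.80, 1.48 and 2.79 FPKM in knockouts and 3.94, 2.08 and 3.89 FPKM in wild types. Of the PDGF ligand genes, Pdgfc was at 4.02 ± 0.795 FPKM in knockouts and 5.23 ± 0.179 FPKM in wild types, and Pdgfa at 25.9 ± 3.55 FPKM in knockouts and 28.4 ± 2.6 FPKM in wild types. Each of these had a limma adjusted p of 0.576 or above.

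**Figure D5:**
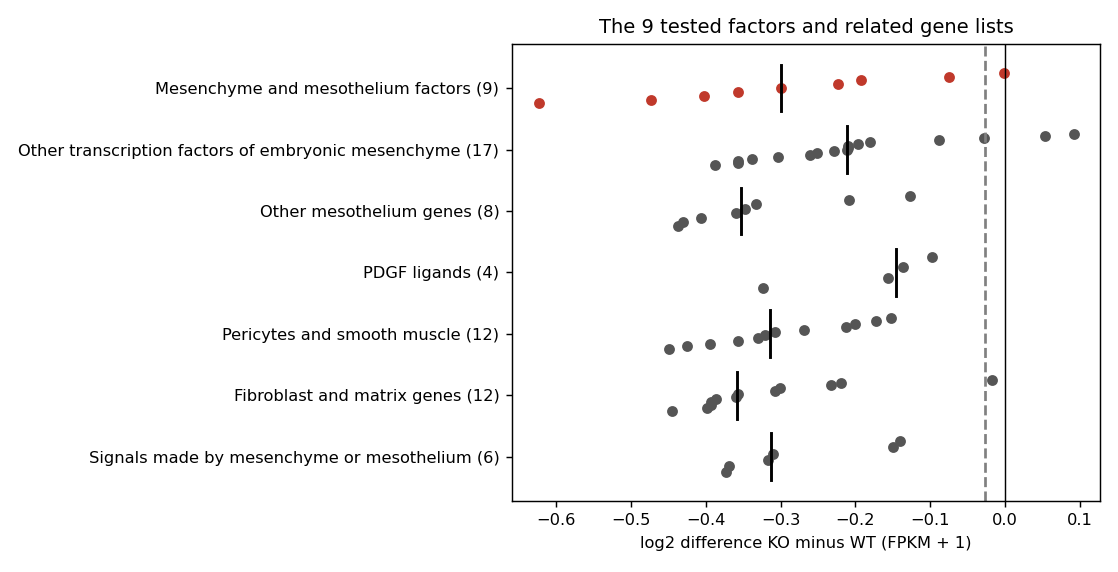
Log2 difference between knockout and wild type (x axis) of the 9 tested genes and of the tested genes of 6 related lists, 1 point per gene, with a black bar at each list's median. The solid line is 0 and the dashed line the median of all tested genes, -0.03. Nearly all points lie left of 0, with medians between -0.36 and -0.15.

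The comparison of heterozygotes with wild types asks whether loss of 1 allele goes with other levels. limma called 0 of 13306 genes higher and 0 lower (0.0% each), with 522 at an unadjusted p under 0.05 and 504 by voom, which also called 0. Of the 9 genes 7 were below 0, against 57.1% of all tested genes, with a median of -0.21 beside -0.02. Nkx3-2 had the largest difference at -0.40 (SE 0.13, limma adjusted p = 0.945), Msln followed at -0.38 (SE 0.21), or -0.23 when wild-type replicate 1 was left out and -0.60 when wild-type replicate 3 was, and Wt1 at -0.35 (SE 0.16). At Nkx3-2 and Wt1 every heterozygote library lay below every wild-type library, as at 7.05% of all tested genes, and the reverse held at 0 of the 9, against 3.54%. Nkx3-2 was the only one of the 9 at an unadjusted p under 0.05, beside 2.58% of all tested genes lower and 1.35% higher. Foxf1a at 0.08 (SE 0.15) and Pdgfrb at 0.08 (SE 0.07) were above 0, with ranges of 0.0059 to 0.21 and 0.022 to 0.13 when each library in turn was left out.

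Between knockouts and heterozygotes 0 of 13306 genes were called higher and 0 lower by limma (0.0% each), with 296 at an unadjusted p under 0.05 and 274 by voom, which also called 0. Of the 9 genes 7 were below 0, against 55.3% of all tested genes. Tcf21 differed by -0.36 (SE 0.22), Foxf1a by -0.28 (SE 0.15), Msln by 0.31 (SE 0.21) and Nkx3-2 by 0.17 (SE 0.13), each with a limma adjusted p of 0.9998. Single libraries moved these values: Tcf21 was at -0.59 without knockout replicate 1, -0.14 without knockout replicate 2 and -0.22 without heterozygote replicate 3. Msln was at 0.14 without knockout replicate 1, Foxf1a at -0.17 without knockout replicate 2, and Nkx3-2 at 0.0939 without heterozygote replicate 1 and 0.27 without heterozygote replicate 2. With sex as a covariate Foxf1a was at -0.15 and Msln at 0.51. At an unadjusted p under 0.05 stood 0 of the 9, beside 0.969% of all tested genes lower and 1.26% higher. Every knockout library lay above every heterozygote library at 0 of the 9, against 3.48% of all tested genes. These 3 comparisons share libraries, so their differences are not independent.

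Genes whose profile over the 9 libraries lay closest to a factor were found by the root mean square difference of centred log2(FPKM + 1). For Tcf21 they were Arhgef25, a guanine nucleotide exchange factor gene, at 0.09, Pde1a, a phosphodiesterase gene, at 0.09 and the glycogen phosphorylase gene Pygm at 0.10. For Osr1 they were the Fc receptor gene Fcgrt, the mural cell receptor gene Notch3 and the plasminogen activator gene Plat, each at 0.06. For Wt1 they were Sertad4 at 0.06, Podxl, which encodes the surface protein podocalyxin, at 0.06 and Ccdc80 at 0.07. For Pdgfra the nearest was Kdr, an endothelial receptor gene, at 0.09, and for Msln it was Dpt, which encodes the matrix protein dermatopontin, at 0.09. Arhgef25 was at 28.2, 15.8 and 21.9 FPKM in knockouts, 27.9, 21.9 and 29.6 FPKM in heterozygotes and 33.3, 32.7 and 26.1 FPKM in wild types. It was picked for its closeness to Tcf21 in these same libraries, so their likeness is no separate result.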

How the data were processed

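Each of the 9 libraries came as a gene table of FPKM values with lower and upper confidence bounds in FPKM, deposited by the authors in the layout of a Cufflinks table, per the file headers. Per the labels, TopHat 2.0.4 placed the reads on mm9 with up to 4 mismatches and 10 hits. The submitters' processing notes also name CASAVA 1.8.2, DESeq and Cufflinks. Annotation and strand use: not given in the sources used here. FPKM of loci with the same symbol were summed, and 4 symbols with an estimate failed for excess data were left out. Groups follow the sample titles. Positions are 1-based mm9, from the files, with strand and exons from GENCODE vM1 of that build.

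log2(FPKM + 1) was tested with limma 3.58.1 in R 4.3.3 (intensity trend, all 9 libraries, genotype as the only term), two-sided, on genes with 1 FPKM in at least 3 libraries, with Benjamini-Hochberg adjustment over 13306 genes and a threshold of 0.05. This scale understates changes of low genes. The script was tested on simulated data. A permutation test of 3 libraries against 3 cannot go below 0.1. Implied fragments assume that the upper bound lies 2 standard errors above the value, and for genes under 500 fragments 73.9% to 74.7% per library were whole within 0.05; bounds cover counting error only. Alternatives were a pseudocount of 0.1, no filter, median-ratio scaling, a replicate block, sex as a covariate, libraries left out and, added after the data were seen, voom on implied fragments. The named genes were the 10 members, up to 3 genes of smallest p between knockout and wild type per related list, the gene of highest mean level per list of another cell type, the 3 nearest profiles per tested gene, and Nkx2-2 and Xist; the text prints some of them. The genes and lists were chosen with earlier results of these data known.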

Additional observations from a re-analysis of the deposited data

How the results depend on the processing

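None of the 9 tested genes passed in any of the 16 alternatives of any comparison. Between knockout and wild type, 134 of 144 values kept their direction and 10 turned, all at Msln and Pdgfrb. The Pdgfrb difference was 0.0347 with median-ratio scaling, 0.0167 with sex as a covariate and 0.0057 with voom, and Msln was at 0.13 with sex as a covariate. Leaving out each library gave -0.30 to 0.0805 for Msln and -0.0689 to 0.0399 for Pdgfrb. In heterozygotes against wild types Barx1 ran between -0.19 and 0.0096 and Pdgfra between -0.36 and 0.0642, and in knockouts against heterozygotes Osr1 between -0.39 and 0.0464, Wt1 between -0.27 and 0.0379 and Pdgfra between -0.42 and 0.0042.

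Over all genes, leaving out a library gave 0 to 1 called genes for knockout against wild type, 0 to 7 for heterozygote against wild type and 0 to 4 for knockout against heterozygote, the highest counts of both heterozygote comparisons without the library labelled knockout replicate 1. Without knockout replicate 1 and heterozygote replicate 1 together, the 3 counts were 4, 5 and 5. The count of heterozygote against wild type was 1 with the replicate block. Same-numbered libraries deviated together with a correlation of -0.189 to 0.29 and other pairs with -0.344 to 0.276, so the replicate numbers were not taken to pair samples, and the block changed no call among the 9 genes. Median-ratio scaling moved the median of all genes between knockout and wild type to 0.01, against -0.03. Depth limits Nkx2-5 (3 to 21 implied fragments), Nkx3-2 and Foxf1a.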

Other observations

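Relative to the mean log2 level of 12 fibroblast and matrix genes in the same library, Tcf21 was at -2.25 ± 0.17 in knockouts, -1.95 ± 0.14 in heterozygotes and -1.95 ± 0.17 in wild types (SD, n = 3 each). On this scale Wt1 was at -3.42 ± 0.08 in knockouts, -3.35 ± 0.22 in heterozygotes and -3.26 ± 0.07 in wild types, and Osr1 at -1.41 ± 0.20 in knockouts, -1.27 ± 0.07 in heterozygotes and -1.32 ± 0.12 in wild types. Pdgfra was at -3.07 in knockouts and -3.03 in wild types. The remaining genes had higher means in knockouts. Pdgfrb stood at -1.61 ± 0.19 in knockouts, -1.58 ± 0.11 in heterozygotes and -1.93 ± 0.21 in wild types. Barx1 was at -2.79 in knockouts and -2.81 in wild types, and Nkx3-2 at -5.04 in knockouts and -5.14 in wild types. Foxf1a was at -4.90 in knockouts and -5.03 in wild types. Msln was at -4.46 in knockouts and -4.70 in wild types, and Nkx2-5 at -5.82 in knockouts and -6.07 in wild types. None of these differences was tested. In FPKM, Nkx3-2, Foxf1a, Msln and Nkx2-5 all had lower means in knockouts, at 0.304 against 0.384 for Nkx2-5. Adding 1 FPKM before the log2 damps changes of such low genes. The part of this damping in their higher relative values was not tested. With a pseudocount of 0.1 the knockout difference from wild type was -0.0957 for Msln and -0.29 for Foxf1a. The fibroblast mean itself was 6.20 ± 0.29 in knockouts, 6.25 ± 0.16 in heterozygotes and 6.52 ± 0.23 in wild types.

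Tlx1, a homeodomain factor gene of the spleen primordium, was at 1.46 ± 0.517 FPKM in knockouts, 1.17 ± 0.264 FPKM in heterozygotes and 2.08 ± 0.355 FPKM in wild types (SD, n = 3 each). Of the stomach and gut list, Tff2 carried nearly the whole sum, at 30.7 to 41.5 FPKM in knockouts, 28 to 48.1 FPKM in heterozygotes and 29.3 to 41.1 FPKM in wild types, and Muc5ac was listed at 0 in every library. The neuron and glia list had sums of 215, 85.3 and 89.3 FPKM in knockout replicates 1, 2 and 3 and 254, 78.6 and 157 FPKM in heterozygotes, against 111 to 158 FPKM in wild types.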
